A study of Mus musculus with 8 samples.

Results

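The genes described here are 10 members of the p53 and Rb pathways: Trp53, Mdm2, Mdm4, Cdkn1a, Cdkn2a, Rb1, Rbl1, Rbl2, Atm and Trp53bp1. They were chosen by name from pathways known as barriers to the reprogramming of fibroblasts, though not every member is itself a barrier. They are 10 of the 21853 protein-coding genes of GENCODE release M21 on chromosomes 1 to 19, X and Y. Each gene was represented by the body of its longest protein-coding transcript on mm10 (GRCm38), whatever its number of exons. At least 1 H3K36me3 peak touched 9 of the 10, compared with 12155 of all protein-coding genes, and 8 of the 10 had at least 10% of their body in peaks in at least 1 library. The latter are called marked genes, of which there were 9885 in all.

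p53, encoded by Trp53, is a transcription factor that halts the cell cycle or kills the cell after damage or oncogenic stress. MDM2 and MDM4 hold it in check, the ARF product of Cdkn2a blocks MDM2, and ATM and 53BP1 act in the response to DNA breaks. Downstream, p21 (Cdkn1a) and the p16 product of Cdkn2a inhibit cyclin-dependent kinases and so keep the pocket proteins RB, p107 (Rbl1) and p130 (Rbl2) bound to E2F factors. H3K36me3 is laid down by SETD2 travelling with elongating RNA polymerase II, so it lies over transcribed gene bodies and rises toward their 3′ ends.

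The data are ChIP–seq libraries from i4F MEFs, mouse embryonic fibroblasts of a strain with a doxycycline-inducible cassette of OCT4, SOX2, KLF4 and MYC (OSKM). All cells came from 1 E13.5 embryo and were collected at 72 h, and the study had picked this MEF line for its high reprogramming efficiency. The 4 conditions were MEF (neither doxycycline nor added vitamin B12), MEF B12 (2 µM vitamin B12), OSKM (doxycycline, given as 1 µg/ml in the labels, where the study's methods write another unit) and OSKM B12 (doxycycline and 2 µM vitamin B12). For each condition there was 1 H3K36me3 library with its input, hence the differences below lack replicates and p-values. Values given for MEF or OSKM "with B12" are those of the MEF B12 and OSKM B12 libraries. The cassette was common to all 4 conditions. The study's methods give a serum medium for MEFs and a serum replacement medium for reprogramming, and for the ChIP cultures refer back to these. Whether the cells without doxycycline had the same medium as those with it is not stated there. The cultures were bulk, so a change in fewer cells and a smaller change in all cells cannot be told apart.

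The H3K36me3 libraries held 29046913 to 33399267 tags after filtering, and the authors called 65473 to 69420 broad peaks per library on these chromosomes. Peaks spanned 92.8 Mb in OSKM and 153.7 to 165.9 Mb in the other libraries. The pileup, the mean number of fragments over a peak, was scaled to 1000000 tags of its library (scaled pileup). A gene's density is its mean scaled pileup per base of gene body, in which a base outside every peak counts as 0. The lowest pileup in any peak was 8 fragments in MEF, MEF B12 and OSKM B12 and 9 in OSKM, which sets what could be called. Of 7 fibroblast markers, 6 were marked, with a summed density of 3.14 in MEF (3.44 with B12) and 1.90 in OSKM (3.78 with B12). Twist1 had no peak. None of 8 pluripotent and epithelial markers was marked. Among them Nanog, Esrrb, Dppa5a, Tdgf1, Sall4, Cdh1 and Epcam had no peak, and Zfp42 had 2.42% of its body in a peak in OSKM and none elsewhere. The blood and endothelial markers Ptprc, Pecam1, Cdh5 and Tyrobp had no peak in any library.

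Some stretches of sequence show places named in the results below, all taken from the RefSeq GRCm38.p6 genome and written 5′ to 3′ on the coding strand of the gene. The first pair lies at the 5′ edge of the large Trp53 domain, which as called reached past exon 2 in MEF, MEF B12 and OSKM B12 and stopped short of it in OSKM. In MEF B12 and OSKM this edge lay within a fragment length (288 to 292 bases) of exon 2, so its place in or out is not resolved there. The first of them starts at the start codon of Trp53 in exon 2 (chr11:69586900-69587009, plus strand) and the other spans exon 3 (chr11:69587217-69587318, plus strand), with exon bases in capitals.
Trp53 exon 2: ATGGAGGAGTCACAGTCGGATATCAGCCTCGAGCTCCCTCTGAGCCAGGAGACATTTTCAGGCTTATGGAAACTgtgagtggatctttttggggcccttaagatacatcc
Trp53 exon 3: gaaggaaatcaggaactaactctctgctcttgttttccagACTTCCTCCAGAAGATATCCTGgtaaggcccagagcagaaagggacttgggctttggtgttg
The last is the middle of a gap inside intron 3 of Mdm2 (chr10:117705956-117706255, minus strand), which no library called although the bases on both sides were called in several. Capitals mark bases that RefSeq masks as repeats, here with a run of GT and GA dinucleotides.
Mdm2 intron 3 gap: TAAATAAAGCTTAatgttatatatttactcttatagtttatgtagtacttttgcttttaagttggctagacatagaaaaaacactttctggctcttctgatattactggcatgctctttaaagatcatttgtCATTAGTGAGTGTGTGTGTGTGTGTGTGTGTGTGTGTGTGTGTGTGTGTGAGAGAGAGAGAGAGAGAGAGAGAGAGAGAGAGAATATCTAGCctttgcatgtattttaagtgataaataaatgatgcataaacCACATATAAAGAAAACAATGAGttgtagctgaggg

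The order of the 10 genes by density had the same ends in all 4 libraries. Mdm2 carried the highest density everywhere, and Rbl1, Rb1 and Cdkn2a were the lowest 3, in that order. The 8 marked genes were at least 10% covered in every library, whereas Rb1 and Cdkn2a reached this in none. In MEF the density of the 8 ran from 0.229 (Rbl1) to 0.703 (Mdm2), with a median of 0.385 beside 0.267 over all marked genes. Neighbours in the middle of the order could not be separated: the 95% counting intervals of Trp53 (0.383 to 0.454), Trp53bp1 (0.391 to 0.418), Rbl2 (0.385 to 0.417) and Cdkn1a (0.331 to 0.409) overlapped in MEF. These intervals, here and below, follow from the estimated number of fragments in the called bases and cover counting error only.

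**Figure D1:**
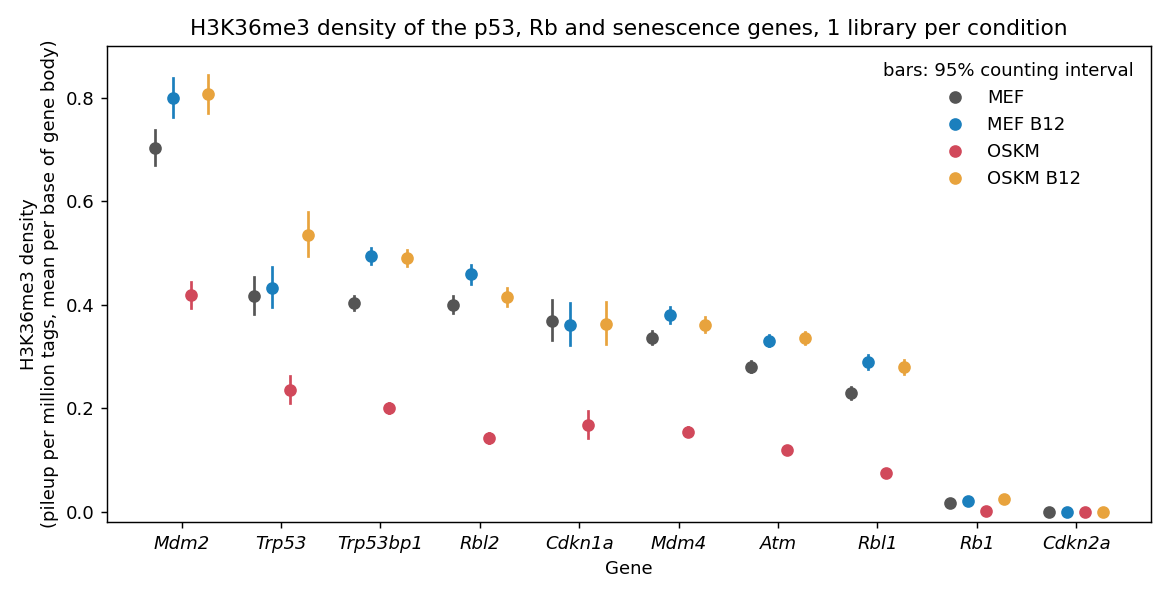
H3K36me3 density (pileup per 1000000 tags, mean per base of the gene body) of the 10 genes in the 4 libraries, with points for the libraries and bars for 95% counting intervals. Mdm2 is highest in each library, the OSKM point is the lowest of the 4 for each of the 8 marked genes, and Rb1 and Cdkn2a lie at or near 0 throughout.

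Across the 8 marked genes, OSKM stood apart from the other 3 libraries. It did so over all marked genes too, with a median density of 0.130 beside 0.267 to 0.335 in the others. Each condition had 1 immunoprecipitation, scaled only to its tags. A weaker immunoprecipitation in OSKM and less of the mark therefore cannot be told apart, in any ratio below that includes OSKM. The density of every one of the 8 was lower in OSKM than in MEF by at least 1.5-fold, and the same held for 67.3% of all marked genes. Both counts depended on the settings. With a pseudocount of 0.2 the number was 6, without Trp53 (log2 change -0.50) and Mdm2 (-0.55), and 21.4% of all marked genes, and with peaks of −log10 q of at least 5 it was 6, without Rbl1 and Atm, which then had no peak in either library, and 57.99%. None of the 8 was higher by that factor, as 0.526% of all marked genes were. A gene could be marked through any library, so shares over all marked genes, here and below, partly follow from that filter. Of all marked genes, 77.2% were at least 10% covered in OSKM and 96.6% in OSKM B12. The median log2 change over the 10 genes was -0.89, and over the 8 marked ones -0.93, beside -0.70 over all marked genes, whose middle 50% ran from -0.93 to -0.53. Log2 changes include a pseudocount of 0.05 scaled pileup, which shrinks the changes of genes with little signal. The fall was steepest in Rbl2 (log2 change -1.23) and Rbl1 (-1.17) and shallowest in Mdm2 (-0.68) and Trp53 (-0.71).

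With vitamin B12 added to the OSKM cells, all 8 marked genes were at least 1.5-fold higher than in OSKM alone, as were 93.5% of all marked genes, while none of the 8 was lower, as were 0.223%. The median log2 change was 1.02 over the 10 genes and 1.07 over the 8, beside 0.98 over all marked genes. This comparison and that of OSKM with MEF share the OSKM library, so a value that is low in that library alone enters both. Without OSKM, vitamin B12 moved none of the 8 by 1.5-fold in either direction, against 4.68% of all marked genes higher and 0.971% lower. There the log2 changes of the 8 ran from -0.02 (Cdkn1a) to 0.28 (Rbl1), and their median, 0.18, lay below that of all marked genes, 0.21.

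**Figure D2:**
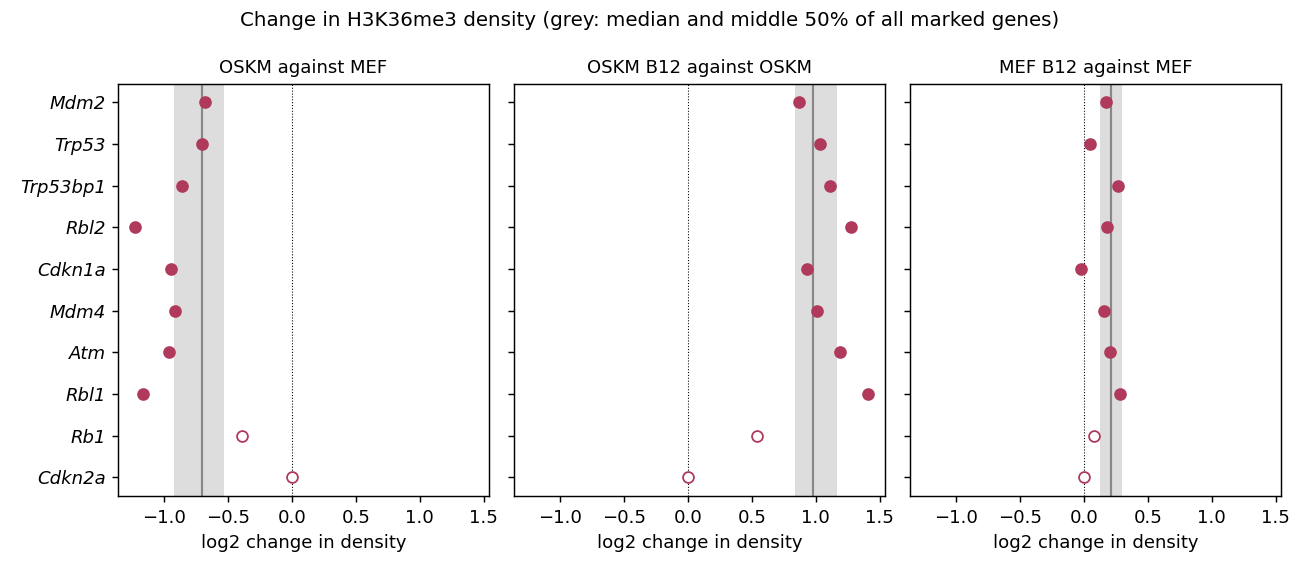
Log2 change in H3K36me3 density of each gene (points, x axis) in the 3 comparisons, with filled points for the 8 marked genes and open points for Rb1 and Cdkn2a. Grey lines and bands give the median and the middle 50% of all 9885 marked genes, with medians at -0.70, 0.98 and 0.21 from left to right. Of the filled points, Rbl2, Rbl1 and Atm lie outside the band in both comparisons that include OSKM. The open points also do, on the side of less change.

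Trp53 itself lies on the plus strand of chromosome 11 (69580359 to 69591873, 11 exons, 11.5 kb). Its density was 0.417 in MEF (0.433 with B12) and 0.236 in OSKM (0.535 with B12). OSKM was the lowest and OSKM B12 the highest of the 4. The ratio of OSKM to MEF was 0.565 (95% counting interval 0.492 to 0.649) and that of OSKM B12 to OSKM 2.27 (1.98 to 2.60). MEF B12 and MEF, with a ratio of 1.04 (0.918 to 1.17), differed by less than counting error.

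Most of this signal sat in 1 domain that ran from intron 1 or 2 past the end of the gene and held 96.96% of the density in MEF (96.7% with B12) and 94.98% in OSKM (85.9% with B12). The domain began at 69586356 in intron 1 in MEF, at 69586881, also in intron 1, in MEF B12, at 69587252 in intron 2 in OSKM and at 69586401 in intron 1 in OSKM B12. In OSKM it thus opened 5 bases before exon 3, and exon 2 with the start codon (69586891 to 69586973) was wholly inside a peak in the other 3 libraries and outside in OSKM. Fragments were estimated at 288 to 292 bases, so the position of an edge is only as fine as that. The edges in OSKM and MEF B12 lay closer to exon 2 than this, so whether exon 2 was in or out is not resolved in them. Exons 3 to 11 were fully covered in every library and exon 1 in none. The pileup of the domain was 27.5 fragments in MEF (28.1 with B12) and 18.6 in OSKM (28.7 with B12), so the OSKM domain was the shallowest. OSKM B12 had 2 further peaks in intron 1, where each other library had 1, which brought its covered share to 66.1%, compared with 51.5% in MEF, 47.5% in MEF B12 and 43.3% in OSKM. Upstream, Wrap53, transcribed the other way from 1034 bases before Trp53, was 38.1%, 62.0%, 24.6% and 52.2% covered in MEF, MEF B12, OSKM and OSKM B12.

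Mdm2, the ubiquitin ligase that degrades p53 and is itself a p53 target, lies on the minus strand of chromosome 10 (117688875 to 117710758, 12 exons). It was the most heavily marked of the 10 genes, with a density of 0.703 in MEF (0.800 with B12) and 0.419 in OSKM (0.806 with B12). Its covered share varied less, from 75.9% in OSKM to 85.9% in MEF. The OSKM to MEF ratio of density was 0.596 (0.552 to 0.643), the OSKM B12 to OSKM ratio 1.93 (1.79 to 2.08) and the MEF B12 to MEF ratio 1.14 (1.06 to 1.22). Within its own library, the density of Mdm2 was above that of 93.8% to 96.4% of marked genes.

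Marking of Mdm2 began in intron 3 in all 4 libraries and exons 1 to 3 were never covered. From exon 4 to beyond the last exon, MEF, MEF B12 and OSKM B12 each had 1 peak, of 18251, 18083 and 18720 bases. In OSKM the same stretch was broken into 3 peaks, of 2879, 7750 and 6221 bases, yet every exon from 4 to 12 was still covered, exon 5 to 80.6%. The intron 3 gap printed above measured 371 bases and separated the large domain from smaller peaks upstream in every library. The neighbouring gene Cpm, which ends 1522 bases beyond Mdm2 on the other strand, was at most 0.764% covered.

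Mdm4, an inhibitor of p53 that resembles MDM2, lies on the minus strand of chromosome 1 (132959484 to 133025338, 11 exons, 65.9 kb). Its density was 0.337 in MEF (0.380 with B12) and 0.155 in OSKM (0.362 with B12), lowest again in OSKM. Against MEF, the OSKM ratio was 0.461 (0.430 to 0.494), and the OSKM B12 to OSKM ratio 2.33 (2.18 to 2.50). Unlike the other marked members, Mdm4 carried no mark in the last of 5 equal parts of its body in any library. The last base in a peak, in the direction of transcription, lay 19.1 kb before the transcript's end in MEF and MEF B12, 19.3 kb in OSKM, and 20.5 kb in the OSKM B12 library. The final exon (132959484 to 132963156) was covered in none. Shorter annotated transcripts end upstream, at 132986220 and at 132991354. Up to the former position the body was 78.2% covered in MEF (77.9% with B12) and 44.6% in OSKM (79.0% with B12), and beyond it 23.3% in MEF (24.1% with B12) and 13.8% in OSKM (19.3% with B12).

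Cdkn1a encodes p21, the kinase inhibitor through which p53 arrests the cell cycle, and lies on the plus strand of chromosome 17 (29090979 to 29099701, 3 exons, 8.72 kb). Density was 0.369 in MEF (0.362 with B12) and 0.167 in OSKM (0.364 with B12). The other libraries lay within counting error of each other and OSKM stood below. The OSKM to MEF ratio was 0.454 (0.378 to 0.545) and the OSKM B12 to OSKM ratio 2.17 (1.80 to 2.62), whereas the MEF B12 to MEF ratio was 0.981 (0.843 to 1.14).

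The equal densities of Cdkn1a in MEF and OSKM B12 came from domains of different shape. In MEF a single peak ran from 29095703 to 29100910 with a pileup of 26.2 fragments. In OSKM B12 the peak began later, at 29096674, ended at 29101070 and was taller, at 31.0 fragments, although that library had fewer tags. The covered share was therefore 45.8% in MEF and 34.7% in OSKM B12, beside 44.6% in MEF B12 and 28.4% in OSKM. Of the Cdkn1a bases covered in MEF, 75.7% were covered in OSKM B12, the lowest share of the 8 members, whose median was 87.3%, compared with 92.3% over all marked genes. In OSKM the domain was split, with peaks from 29096707 to 29097487 and from 29098007 to 29100943. Exons 2 and 3, which hold the coding sequence, were fully covered in all 4 libraries. The longest transcript starts upstream of a shorter one (29093769 to 29100722), over which the covered share was 72.2% in MEF (70.6% with B12) and 50.3% in OSKM (58.2% with B12), in the same order.

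**Figure D3:**
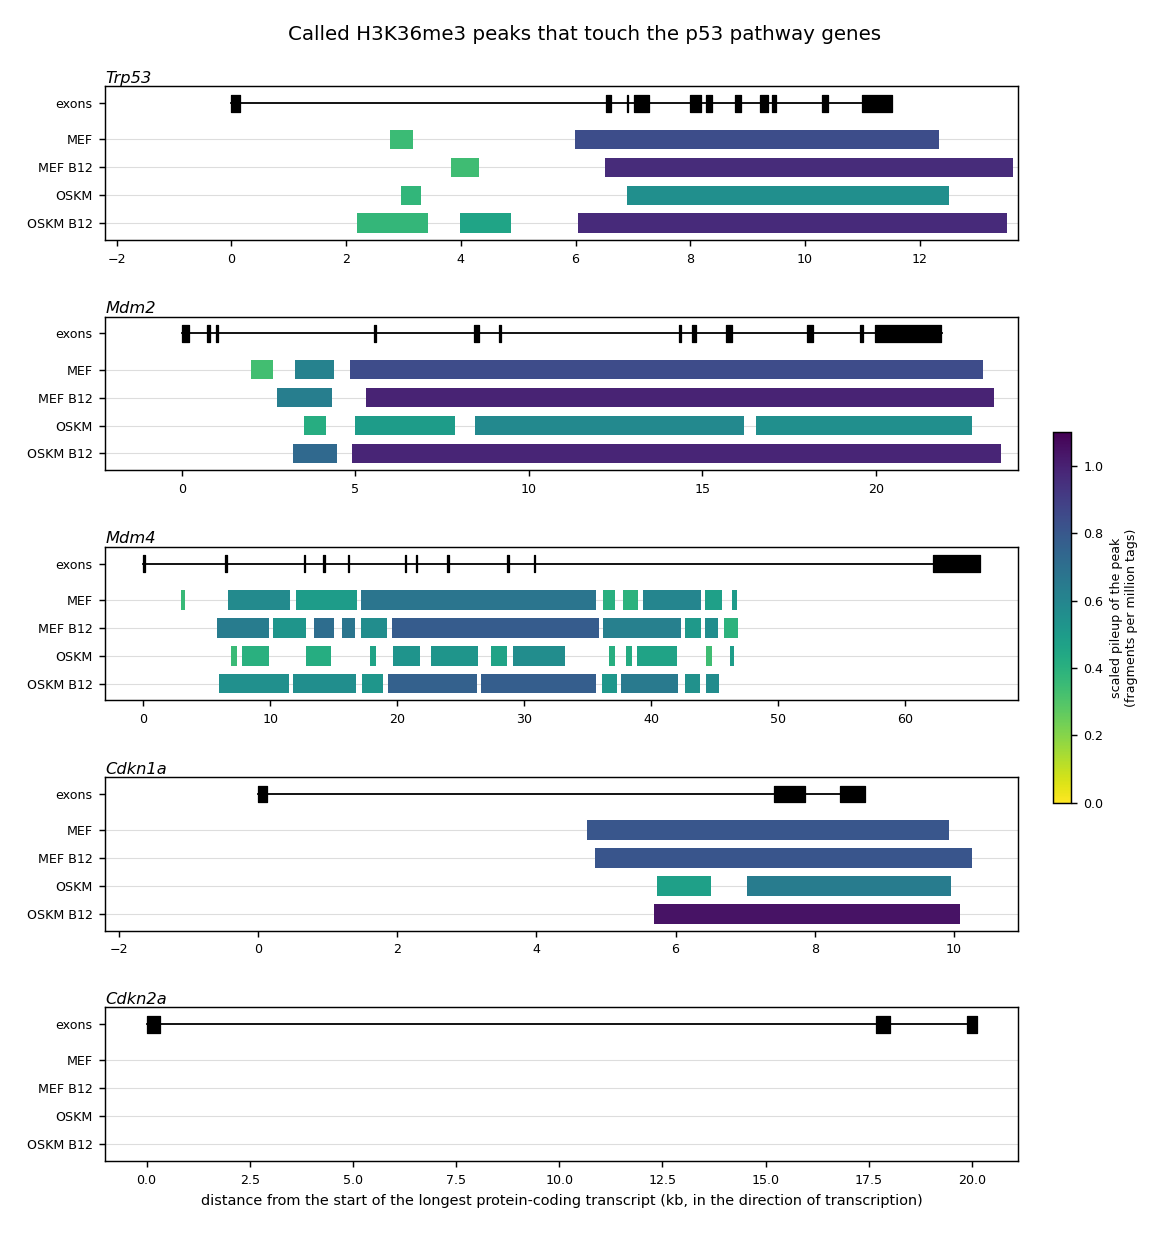
Peaks that touch Trp53, Mdm2, Mdm4, Cdkn1a and Cdkn2a in each library, against distance in kb from the transcript start in the direction of transcription. Black boxes are exons and the colour of a peak is its scaled pileup. The large OSKM domains are paler, and those of Mdm2, Mdm4 and Cdkn1a, though not that of Trp53, are more broken. The peaks of Mdm4 stop before the last exon in all 4 libraries, and Cdkn2a has none.

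Cdkn2a encodes p16 and ARF from alternative first exons, and is the classical senescence locus of cultured MEFs. It lies on the minus strand of chromosome 4 (89274541 to 89294653, 3 exons in the longest transcript, which starts at the ARF promoter). None of its bases lay in a peak in any library, and the same was true of the p16 transcript, which starts at 89282192. No peak in any library was found for 9698 of the 21853 protein-coding genes (44.4%), so this state is common. Absence from the lists means that enrichment was not detectable at this depth and cut-off. The closest peak upstream of the ARF start was 2.06 kb away in MEF (2.90 kb with B12) and 11.3 kb in OSKM (2.57 kb with B12), and downstream of the gene no peak lay within 91.4 kb. Cdkn2b, the neighbouring gene for the p15 inhibitor, which starts and ends upstream of Cdkn2a on the same strand, was 20.7% covered in MEF (24.7% with B12) and 1.31% in OSKM (23.0% with B12).

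The 3 pocket protein genes differed widely in level. Rb1 lies on the minus strand of chromosome 14 (73195502 to 73325822, 27 exons) and is, at 130.3 kb, the longest of the 10. Its density was 0.0176 in MEF (0.0214 with B12) and 0.00155 in OSKM (0.0248 with B12), and its covered share 4.75% (5.12% with B12) in MEF and 0.418% (5.75% with B12) in OSKM. All 4 values were below the 10% needed to count as marked. The peaks were few and small: 9 in MEF, 10 in MEF B12, 9 in OSKM B12 and a single one of 545 bases in OSKM, which lay over exon 20. The ratio of OSKM to MEF was 0.0884 (0.0579 to 0.135) and that of OSKM B12 to OSKM 16.0 (10.5 to 24.3), but the OSKM value rested on an estimated 23.4 fragments. Low coverage was common, in long genes and in general. Over all protein-coding genes the median covered share in MEF was 0.722%, and Rb1 was above 54.2% of them. Of the 2391 protein-coding genes of at least 100 kb, 31.3% were marked, and Rb1 was covered over a larger share in MEF than 63.4% of them.

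Part of the Rb1 signal could not be assigned to it. The convergent gene Rcbtb2 overlaps its 3′ end by 12342 bases, and of the Rb1 bases in peaks, 1704 lay in this overlap in MEF (4060 with B12) and 0 in OSKM (4106 with B12). Rcbtb2 itself was 49.4% covered in MEF and 25.2% in OSKM. Lpar6, which lies inside an intron of Rb1 over 5400 bases, had no peak.

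Rbl1 (p107) lies on the minus strand of chromosome 2 (157145893 to 157204512, 22 exons) and had a density of 0.229 in MEF (0.289 with B12) and 0.0743 in OSKM (0.279 with B12). OSKM was the lowest by a wide margin. The OSKM to MEF ratio, 0.324 (0.293 to 0.358), and the OSKM B12 to OSKM ratio, 3.76 (3.40 to 4.16), were the most extreme of the 8 marked genes when no pseudocount was added. The body was 49.5% covered in MEF (58.1% with B12) and 18.7% in OSKM (56.5% with B12). Peaks touched 15 of its 22 exons in MEF (20 with B12) and 6 in OSKM (16 with B12), and the median peak in OSKM was 533 bases long, compared with 1506 in MEF.

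Rbl2 (p130), the pocket protein of resting cells, lies on the plus strand of chromosome 8 (91070057 to 91123844, 22 exons). Its density was 0.4004 in MEF (0.459 with B12) and 0.142 in OSKM (0.415 with B12), so OSKM was again the lowest and the other 3 were close. Set against MEF, the OSKM ratio was 0.355 (0.329 to 0.384), the OSKM B12 to OSKM ratio 2.92 (2.70 to 3.15) and the MEF B12 to MEF ratio 1.15 (1.08 to 1.21). In MEF, MEF B12 and OSKM B12 the 3′ domain ran 6014, 7666 and 6114 bases past the end of the transcript. In OSKM the last peak that touched the gene ended at 91123649, inside the last exon. Separate peaks beyond the transcript end were not counted. The median peak was 696 bases long in OSKM and 2661 to 3120 bases in the other libraries.

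**Figure D4:**
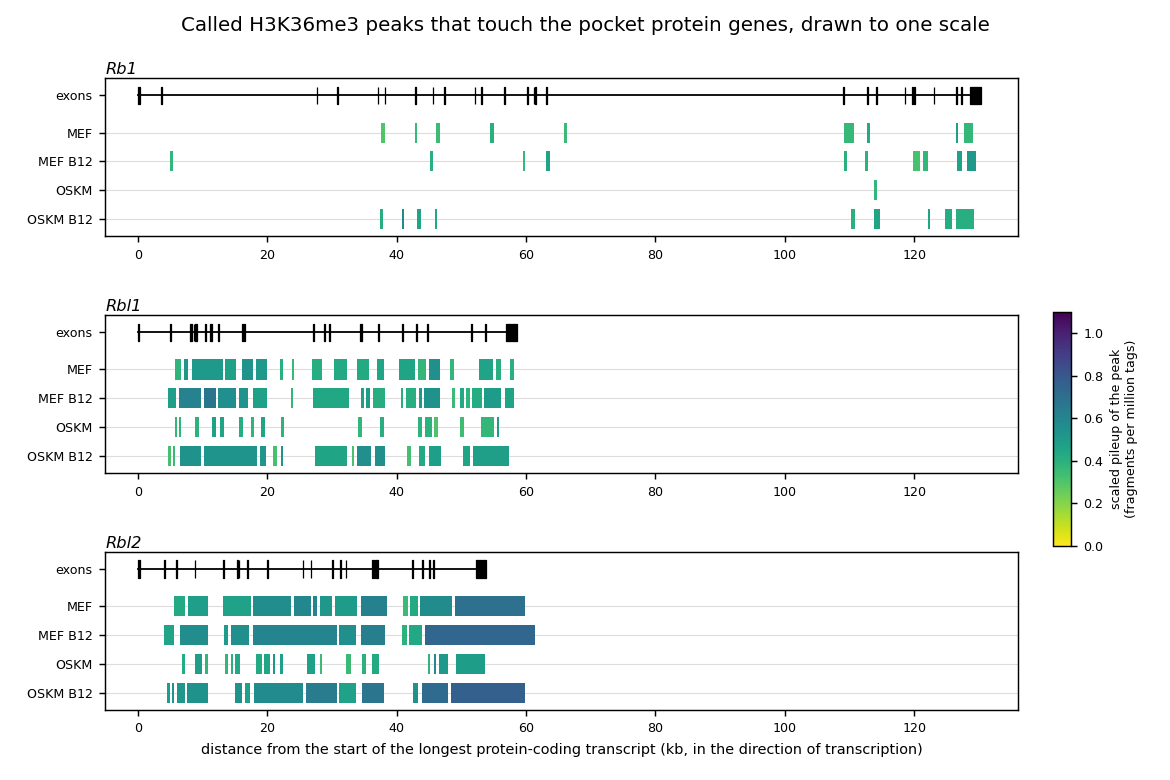
Peaks that touch Rb1, Rbl1 and Rbl2 in each library, against distance in kb from the transcript start and drawn to the same scale. Black boxes are exons and colour is the scaled pileup. Rb1 has 9, 10, 1 and 9 short peaks, and the OSKM rows of Rbl1 and Rbl2 keep short pieces of the wider domains seen in the other 3 libraries.

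In both genes of the DNA damage response OSKM was again the lowest library. Atm, the kinase that phosphorylates p53 after double-strand breaks, lies on the minus strand of chromosome 9 (53439368 to 53536740, 64 exons). Its density was 0.281 in MEF (0.331 with B12) and 0.119 in OSKM (0.336 with B12). Peaks touched 46 of the 64 exons in MEF (47 with B12) and 23 in OSKM (49 with B12). Relative to MEF, OSKM stood at 0.425 (0.399 to 0.453), the OSKM B12 to OSKM ratio 2.81 (2.64 to 3.00) and the MEF B12 to MEF ratio 1.18 (1.12 to 1.24). Npat, which starts 306 bases away on the opposite strand, was 72.3%, 69.7%, 37.7% and 72.0% covered in MEF, MEF B12, OSKM and OSKM B12.

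Trp53bp1, whose product 53BP1 binds p53 and shields broken DNA ends, lies on the minus strand of chromosome 2 (121194838 to 121271407, 28 exons). Density was 0.404 in MEF (0.495 with B12) and 0.2002 in OSKM (0.490 with B12). The OSKM to MEF ratio was 0.495 (0.468 to 0.525), the OSKM B12 to OSKM ratio 2.45 (2.32 to 2.59) and the MEF B12 to MEF ratio 1.22 (1.17 to 1.28). The last 3933 bases of the gene overlap Tubgcp4, transcribed toward it, and were covered in full in all 4 libraries, so the 3′ end of the domain belongs to both genes. In its 5′-most of 5 equal parts the body was 37.9% covered in MEF (49.99% with B12) and 8.65% in OSKM (38.3% with B12).

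The lower density in OSKM was also described by the extent and the height of the called domains. The lists give 1 mean pileup for a whole peak, so the height at a shared base includes bases of the same peak that OSKM did not call, and extent and height are not separate measurements. Of the bases covered in MEF, OSKM still covered 88.3% in Mdm2, 81.6% in Trp53, 61.9% in Cdkn1a, 57.7% in Trp53bp1, 55.8% in Mdm4, 41.7% in Rbl2, 41.3% in Atm and 30.4% in Rbl1, with a median of 58.1% over all marked genes. Over bases called in all 4 libraries, the OSKM to MEF ratio of scaled pileup was 0.658 (0.608 to 0.712) in Mdm2 and 0.661 (0.570 to 0.766) in Trp53, whereas it was 0.845 (0.727 to 0.982) in Rbl1 and 0.819 (0.751 to 0.893) in Atm. The intervals of Mdm2 and Atm did not overlap, and those of Trp53 and Rbl1 did.

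Nor are these measures independent of the cut-off. In MEF the shared bases of Mdm2 and Trp53 had the highest scaled pileup of the 8, 0.840 and 0.845, and those of Rbl1 the lowest, 0.478, while no peak was called below 0.246 in MEF or 0.269 in OSKM. How far the cut-off set the extent that was kept was not tested. Over the shared bases none of the 8 was lower by 1.5-fold in OSKM than in MEF, where 2.69% of all marked genes were, and the median ratio was 0.776, beside 0.784 over the 9066 marked genes with such bases. For OSKM B12 against OSKM the shared-base ratio ran from 1.26 in Rbl1 to 1.78 in Cdkn1a, with a median of 1.47 beside 1.49. For MEF B12 against MEF it ran from 1.01 to 1.17.

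**Figure D5:**
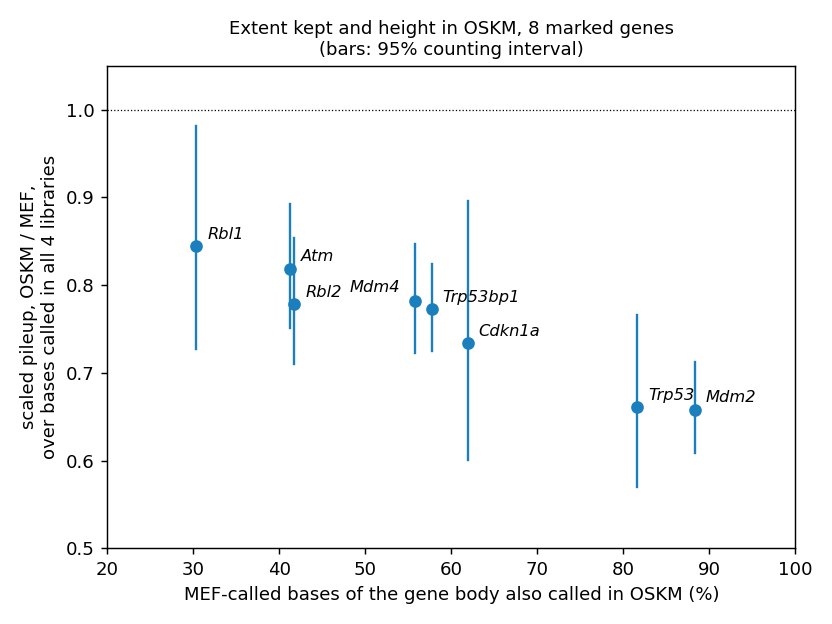
Share of MEF-covered bases that OSKM also covered (x axis, %) against the OSKM to MEF ratio of scaled pileup over the bases that every library called (y axis), with 1 point for each of the 8 marked genes and bars for 95% counting intervals. Mdm2 and Trp53 keep over 80% of their extent at a ratio near 0.66, and Rbl1 keeps 30.4% at 0.845.

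With only strong peaks kept (−log10 q of at least 5), the members at least 10% covered were 6 in MEF (7 with B12) and 3 in OSKM (7 with B12). Of all marked genes, 57.6% were so covered in MEF (65.4% with B12) and 14.0% in OSKM (67.8% with B12), compared with 93.2% (96.2%) and 77.2% (96.6%) with all peaks. The 3 in OSKM were Trp53 (40.1%), Mdm2 (24.4%) and Cdkn1a (19.4%). Mdm4, Rbl2 and Trp53bp1, covered over 35.5%, 30.1% and 29.7% in MEF, had no strong peak in OSKM. The Rbl1 and Atm bodies had none in either of these libraries.

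The covered share was also taken along the gene bodies. With each body cut into 5 equal parts, the first part of the 8 was on average 32.8% covered in MEF (37.2% with B12) and 12.7% in OSKM (33.5% with B12). Over all marked genes these averages were 12.9% in MEF (14.3% with B12) and 7.09% in OSKM (14.8% with B12). In the last part the members averaged 75.7% in MEF and 63.6% in OSKM, beside 70.4% and 50.5% over all marked genes. The exceptions among the members were Trp53 and Cdkn1a, whose first part was uncovered in MEF, MEF B12 and OSKM, with 4.78% of that part of Trp53 covered in OSKM B12. These are the shortest of the 8 genes, at 11.5 and 8.72 kb. The parts scale with gene length, and how far length set the averages of the first part was not tested.

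Stretches inside these domains that no library called held a larger share of repeats than the bases that all libraries called. Between the outermost called bases of the 8 genes lay 64 such gaps with 49905 bases in all, of which 40.9% are masked as repeats in the RefSeq genome, compared with 23.6% of the bases called in all 4 libraries. Over all marked genes the shares were 29.96% and 18.8%. Among the members the gap share ran from 18.7% in Trp53 to 58.1% in Trp53bp1, and Cdkn1a had no such gap. Whether reads could be placed uniquely in these stretches was not tested.

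The other genes of the 2 pathways were counted over 4 lists. Of 18 genes of p53 control and DNA damage signalling, 16 were marked, 12 of them at least 1.5-fold lower in OSKM than in MEF, with a median log2 change of -0.84, and all 16 were at least 1.5-fold higher in OSKM B12 than in OSKM. The highest mean densities over the 4 libraries were those of the acetyltransferase genes Kat5 and Ep300 and the ubiquitin ligase gene Rchy1. Their densities were 0.646, 0.563 and 0.471 in MEF and 0.431, 0.328 and 0.208 in OSKM. The p53 relatives Trp63 and Trp73 had no peak. In MEF B12 against MEF, 1 of the 16 was at least 1.5-fold higher, beside 4.68% of all marked genes. This was Wrap53, named for this value (log2 change 0.67).

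Of 23 p53 target genes, 21 were marked, 15 of them at least 1.5-fold lower in OSKM (median log2 change -0.65) and 17 at least 1.5-fold higher in OSKM B12 than in OSKM. Gtse1, a regulator of p53 in G2, the death effector gene Bax and the death receptor gene Tnfrsf10b had the highest densities on average over the 4 libraries, with 0.572, 0.564 and 0.480 in MEF and 0.347, 0.341 and 0.290 in OSKM. Gadd45a and Perp had no peak. In MEF B12 against MEF, 1 of the 21 passed 1.5-fold upward, again beside 4.68% of all marked genes. It was Phlda3, likewise named for its value (log2 change 0.76).

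Among 21 Rb, E2F and CDK inhibitor genes, 18 were marked, 15 of them at least 1.5-fold lower in OSKM (median log2 change -0.80), and all 18 were at least 1.5-fold higher in OSKM B12 than in OSKM. Tfdp1, the partner of E2F factors, led by mean density over the 4 libraries, with 0.712 in MEF and 0.466 in OSKM. E2f4 followed with 0.522 and 0.305, and the RB-binding chromatin factor gene Rbbp4 with 0.511 and 0.252. The inhibitor genes Cdkn2c and Cdkn2d had no peak. Of 20 senescence-associated genes, 13 were marked, of which 10 were at least 1.5-fold lower in OSKM (median log2 change -0.76) and 11 at least 1.5-fold higher in OSKM B12 than in OSKM. By the same mean the highest were the NF-κB subunit gene Rela at 0.835 in MEF and 0.4503 in OSKM, the transcription factor gene Ets2 at 0.573 and 0.343 and the secreted factor gene Igfbp5 at 0.512 and 0.297. The secretory genes Il6, Cxcl1 and Ccl2 and the regulators Cebpb and Gata4 had no peak. No marked gene of the 4 lists was at least 1.5-fold higher in OSKM than in MEF or lower in OSKM B12 than in OSKM. Both were rare among all marked genes, at 0.526% and 0.223%. The filter partly sets the counts past 1.5-fold in the lists too, as genes weakly covered in OSKM could be marked through another library. In the order of the lists, 13, 17, 11 and 7 genes were at least 10% covered in OSKM. In OSKM B12 these numbers were 16, 21, 18 and 11. None of these 4 lists can be read as set apart from the background. There 67.3% of marked genes were at least 1.5-fold lower in OSKM than in MEF, and 93.5% at least 1.5-fold higher in OSKM B12 than in OSKM.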

How the data were processed

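The data were 4 H3K36me3 and 4 input ChIP–seq libraries. Per the study's methods and the submitters' processing notes, alignment by the authors to mm10 used Bowtie 0.12.9. They merged runs, removed duplicates and called broad peaks with MACS2 2.2.6 for each library against its input, with q-value cut-offs of 0.05 and 0.1 and an effective genome size of 3209286105. The deposited pileup is a signal (mean fragments per base of a peak), the deposited fold enrichment a ratio to the local input, and significance the authors' −log10 p and q.

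From these lists, covered shares, densities, shared bases and distances were computed (scipy 1.17.1 and numpy 2.4.6 under Python 3.11; figures with matplotlib 3.10.9). The interval arithmetic was tested on simulated data. All 10 member transcripts had the same sequence in the RefSeq genome. Counting intervals are at 95%. The 10 genes and the lists were chosen with earlier results of these data known. All 10 were named, with the 3 highest by mean density and those without a peak from each pathway list, and genes overlapping or next to a member. Other genes are said to be named for their value. Reads outside peaks were not analysed here. With 1 library per condition no p-value was computed.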

Additional observations from a re-analysis of the deposited data

How the results depend on the processing

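No paired analysis was possible because there was 1 library for each condition. Values in parentheses are those of all marked genes. For OSKM against MEF, the median log2 change of the 10 genes moved from -0.89 (-0.70) to -0.997 (-0.96) with peaks of −log10 q of at least 5, to -0.76 (-0.64) with peaks at most 1 kb apart merged, to -0.84 (-0.68) with fold enrichment, to -0.59 (-0.44) with a pseudocount of 0.2, to -0.82 (-0.70) over the annotated gene span and to -0.34 (-0.32) over bases called in all 4 libraries, where Rb1 and Cdkn2a have none. For OSKM B12 against OSKM it moved from 1.02 (0.98) to 1.31 (1.72) with the stricter q, to 0.88 (0.85) with unscaled pileup, to 0.85 (0.90) with fold enrichment, to 0.72 (0.65) with the larger pseudocount and to 0.51 (0.53) over shared bases. Except over shared bases, the median of the 10 includes Rb1 and Cdkn2a, which are not marked. Its place above or below the value in parentheses is therefore not a comparison of like genes. Under the stricter q, for example, the Rb1 change was 0. For MEF B12 against MEF it moved from 0.16 (0.21) to 0.024 (0.07) with unscaled pileup, to 0.12 (0.19) with fold enrichment and to 0.12 (0.15) with the larger pseudocount. The number of genes at least 1.5-fold lower in OSKM went from 8 (67.3%) to 0 (2.69%) over shared bases, to 7 (57.6%) with merged peaks, and to 6 with the larger pseudocount (21.4%) and with the stricter q (57.99%). That of genes higher in OSKM B12 went from 8 (93.5%) to 3 (35.8%) over shared bases, to 7 (73.5%) with the stricter q and to 9 (93.5%) over the annotated gene span. That of genes higher in MEF B12 went from 0 (4.68%) to 3 (17.7%) with the stricter q. Genes at least 10% covered in OSKM went from 8 (77.2%) to 3 (14.0%) with the stricter q. Fewer called bases enter under the stricter q and over shared bases, and the cause of the other shifts was not tested. Of 273 values of single genes under the alternatives, 4 had another sign than the value reported, all in MEF B12 against MEF and none past 1.5-fold. These include shorter transcripts of Mdm4 and Cdkn1a as gene bodies, chosen after seeing the data. A fold enrichment cut-off of 2, equal numbers of peaks and leaving out bases of other genes moved none of the medians beyond counting error. They left the numbers of genes past 1.5-fold as they were.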
